A study of Mus musculus with 13 samples.

Results

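Integrins are adhesion receptors made of one alpha and one beta chain, and the pairing of the chains sets which ligand a T cell can hold on to. The 9 chains described here are the alpha chains Itgae (CD103), Itga2 (CD49b), Itga4 (CD49d), Itgal (CD11a) and Itgav (CD51) and the beta chains Itgb1 (CD29), Itgb2 (CD18), Itgb3 (CD61) and Itgb7. They were found by symbol among the probe sets that the platform annotation assigns to exactly 1 gene, and all 9 were present among the 22180 genes so named. Itgav had 2 such probe sets, the others 1 each, and the set with the highest mean log2 value over all 13 arrays was used. All 9 passed the filter on low values, Itga2 only through its ligand arrays.

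As background, a beta chain without a partner is held back in the cell, so the amount of a receptor at the surface depends on both of its chains. Itgae pairs with Itgb7 and binds E-cadherin on epithelial cells. Itga4 pairs with Itgb7 to bind the gut vessel ligand MAdCAM-1 and with Itgb1 to bind VCAM-1 and fibronectin. Itga2 pairs with Itgb1 to bind collagen, Itgal with Itgb2 to bind the ICAM proteins, and Itgav with Itgb1, Itgb3 or other beta chains to bind ligands such as vitronectin and latent TGF-beta.

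RNA came from donor CD4+ T cells of mice in which a graft-versus-host reaction had been started. Donor splenocytes (C57Bl/6) carried CFSE, a dye that is diluted at each division, and were injected into B6D2F1 hosts. Donors and hosts were 10 to 12 weeks old. The hosts were given Cl-BBQ (5 arrays, 10 mg/kg on days 0 to 2), TCDD (4 arrays, 15 µg/kg on day 0) or vehicle (4 arrays, on the days of Cl-BBQ), all intraperitoneally. On day 3 (72 h), CD4+ cells from spleen and lymph node that had gone through 2 or more divisions were enriched on beads and sorted. TCDD and Cl-BBQ both bind and activate AhR, the aryl hydrocarbon receptor, which works as a transcription factor, and the comparisons ask how AhR activation alters expression in newly activated CD4+ T cells. Host cells and donor cells were both exposed to the ligands, and only cells that had divided were measured. The labels call the samples biological replicates. One array was run per sample on a single-colour platform.

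Values are log2 expression per probe set as deposited, and array medians lay between 4.27 and 4.33. Genes above the median of all values (4.31, here called the floor) on at least 4 arrays were tested, 12710 in all. T cell identity was clear in every group. The mean of the 6 T cell markers with a probe set, among them Cd3e and Cd4, lay between 11.21 and 11.27 with Cl-BBQ, between 11.22 and 11.27 with TCDD and between 10.92 and 11.21 with vehicle.

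The integrin genes split into a group that rose, a group that fell and a group that stayed near the vehicle level. With Cl-BBQ 7 of 9 passed the test, 4 higher (Itgae, Itga2, Itgb3 and Itgb7) and 3 lower (Itgb1, Itga4 and Itgal). With TCDD 5 of 9 passed, 2 higher (Itgae and Itga2) and the same 3 lower. Among all genes tested, 11.3% were called for Cl-BBQ against vehicle (5.31% higher and 6.03% lower) and 6.71% for TCDD against vehicle (3.21% higher and 3.5% lower), by limma with an adjusted p under 0.05 after Benjamini-Hochberg adjustment. The arrays of ligand and vehicle did not overlap for 7 of the 9 genes with Cl-BBQ, beside 12.9% of all genes, and for 6 with TCDD, beside 13.6%. The median size of change over the 9 genes was 0.66 log2 with Cl-BBQ and 0.42 with TCDD, beside 0.14 and 0.13 over all genes tested. The 9 genes and the lists below were chosen with earlier results of these data known, so these shares and sizes describe them and test nothing. Both comparisons use the same 4 vehicle arrays. In such bulk samples, a change in the share of cells that hold a transcript cannot be told apart from a change in the amount per cell.

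**Figure D1:**
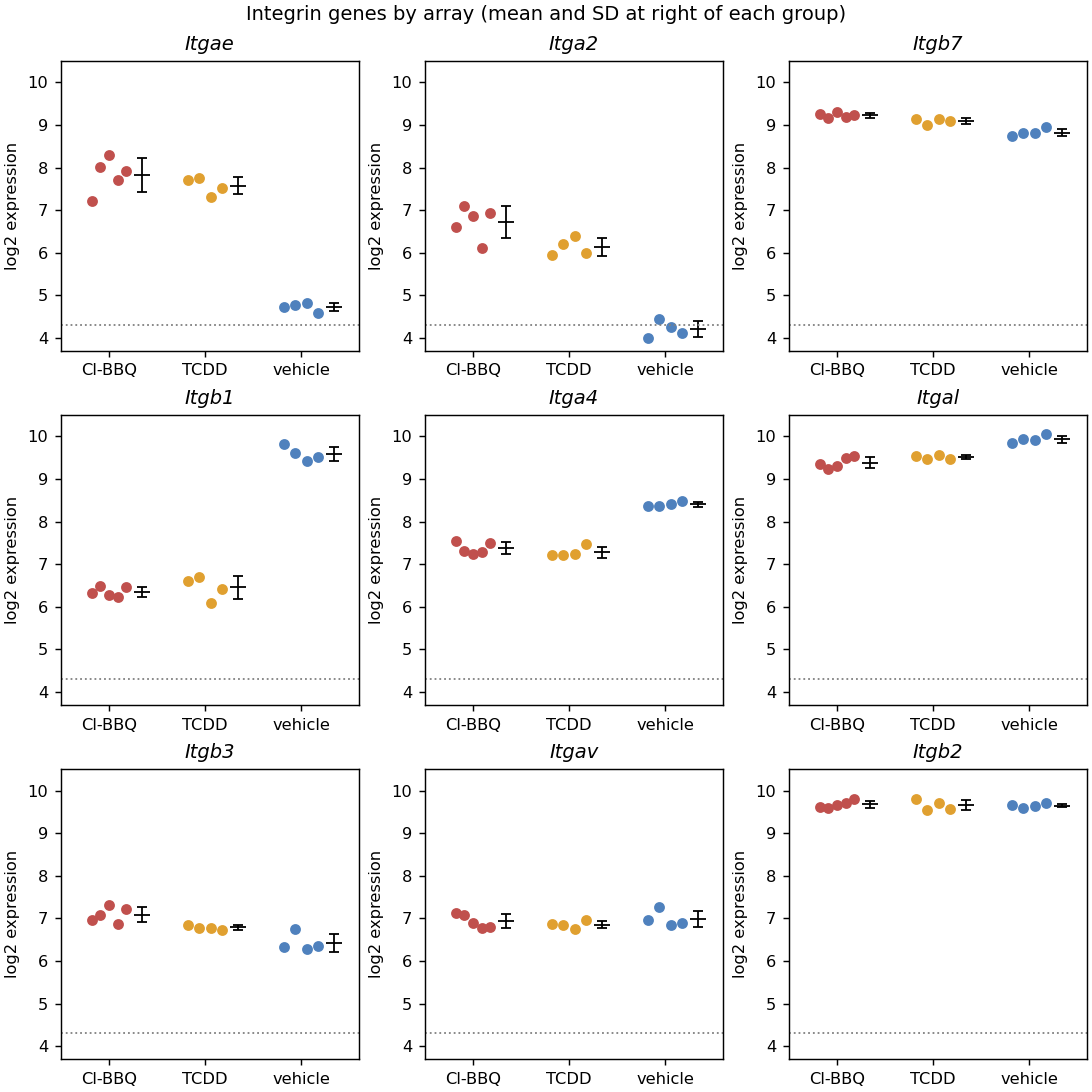
Log2 expression of the 9 integrin genes (vertical axis) on each array of the Cl-BBQ, TCDD and vehicle groups (horizontal axis). Points are single arrays, the bar at the right of each group is the mean with the SD, and the dotted line is the floor of 4.31. The ligand arrays of Itgae and Itga2 lie above all vehicle arrays, those of Itgb1, Itga4 and Itgal below them, and those of Itgb2 and Itgav among them.

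Itgae encodes the alpha chain of the epithelial retention receptor, which marks T cells resident in mucosa. Its log2 values were 7.21, 8.02, 8.29, 7.71 and 7.91 with Cl-BBQ, 7.71, 7.76, 7.31 and 7.52 with TCDD and 4.74, 4.78, 4.83 and 4.60 with vehicle. All ligand arrays lay above all vehicle arrays, and the Cl-BBQ arrays spread more widely (7.83 ± 0.40, SD, n = 5) than those of TCDD (7.57 ± 0.20, SD, n = 4) and vehicle (4.74 ± 0.10, SD, n = 4). The fold change against vehicle was 8.54 with Cl-BBQ (limma, adjusted p = 3.0e-08) and 7.15 with TCDD (adjusted p = 1.9e-07). The vehicle arrays stood only a little above the floor, where array values compress differences.

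Itga2 encodes the collagen-binding alpha chain, known in mouse as the DX5 antigen of natural killer cells and as a marker of interleukin 10-producing type 1 regulatory T cells. It read 6.60, 7.09, 6.86, 6.12 and 6.92 with Cl-BBQ, 5.94, 6.21, 6.40 and 6.00 with TCDD and 4.01, 4.44, 4.25 and 4.11 with vehicle. The vehicle mean of 4.20 ± 0.19 (SD, n = 4) lay below the floor, so the fold changes of 5.71 with Cl-BBQ (limma, adjusted p = 2.5e-07) and 3.82 with TCDD (adjusted p = 1.2e-05) were measured against a compressed level.

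Markers of cells that can carry these chains, outside the CD4+ lineage or, for regulatory T cells, within it, were followed beside them. None of the 4 tested natural killer cell markers was called by limma with either ligand. For so few markers this is near the shares of all genes called, 11.3% with Cl-BBQ and 6.71% with TCDD. With each ligand 1 had an unadjusted p under 0.05, Klrb1c with Cl-BBQ (log2 change -0.50 ± 0.16 SE) and Ncr1 with TCDD (0.33 ± 0.14), both named after their values had been seen. Over all 6 natural killer cell markers with a probe set the array means ran from 4.03 to 4.35 with Cl-BBQ, from 3.94 to 4.23 with TCDD and from 4.14 to 4.36 with vehicle. The cytotoxic T cell markers Cd8a and Cd8b1 were not called with either ligand, which for 2 genes is likewise near the shares of all genes. Their array means ran from 5.66 to 6.12 with Cl-BBQ, from 5.34 to 6.01 with TCDD and from 5.28 to 5.55 with vehicle, and Cd8a itself stood 0.60 ± 0.25 (SE) above vehicle with Cl-BBQ (limma, adjusted p = 0.15) and 0.58 ± 0.26 with TCDD (adjusted p = 0.25). All Cl-BBQ arrays of Cd8a lay above all vehicle arrays. Regulatory T cells, which can carry Itgae, have 4 markers here, all tested. Il2ra rose by 0.97 ± 0.17 (SE) with Cl-BBQ and by 0.66 ± 0.18 with TCDD, and Ctla4 by 0.81 ± 0.09 and 0.71 ± 0.10, both also induced in activated T cells. Ikzf2 fell by 0.56 ± 0.14 with Cl-BBQ and stood at -0.43 ± 0.15 with TCDD (limma, adjusted p = 0.10), and Foxp3, the defining factor, stood at -0.28 ± 0.16 with Cl-BBQ (adjusted p = 0.35) and -0.28 ± 0.17 with TCDD (0.45). The mean of the 4 was 8.31 with Cl-BBQ, 8.23 with TCDD and 8.07 with vehicle, with overlapping arrays (from 8.20 upward with Cl-BBQ, from 8.09 to 8.44 with TCDD and from 7.84 to 8.24 with vehicle). The part of all these cells in the rises of Itgae and Itga2 was not tested.

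Itgb7, the partner of both Itgae and Itga4, rose by less. Its values were 9.25, 9.16, 9.30, 9.18 and 9.24 with Cl-BBQ, 9.14, 9.01, 9.14 and 9.09 with TCDD and 8.73, 8.81, 8.80 and 8.95 with vehicle. All arrays of each ligand lay above all vehicle arrays. Against vehicle the log2 change was 0.40 ± 0.08 (SE) with Cl-BBQ, which passed (limma, adjusted p = 0.0023), and 0.27 ± 0.08 with TCDD, which did not (adjusted p = 0.064). The TCDD value passed with a stricter floor (adjusted p = 0.037), with an intensity trend (0.021), after a further quantile normalization (0.047), with array weights (0.045) and without vehicle replicate 4 (0.049).

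Itgb3, the beta chain of the vitronectin receptor and of the platelet fibrinogen receptor, read 6.95, 7.07, 7.32, 6.87 and 7.23 with Cl-BBQ, 6.85, 6.78, 6.78 and 6.73 with TCDD and 6.32, 6.74, 6.28 and 6.36 with vehicle. The Cl-BBQ arrays lay above all others, and the TCDD arrays overlapped the vehicle group through its replicate 2. The log2 change was 0.66 ± 0.11 (SE) with Cl-BBQ (limma, adjusted p = 0.0011) and 0.36 ± 0.12 with TCDD, which did not pass (adjusted p = 0.10) except without vehicle replicate 2 (adjusted p = 0.026). Of 9 platelet markers, 7 had a probe set and 5 were tested. Limma called none of the 5 with either ligand, which is near the shares of all genes (11.3% with Cl-BBQ and 6.71% with TCDD). Their changes lay between -0.36 and 0.40 with Cl-BBQ and between 0.06 and 0.34 with TCDD. Gp5 was the highest with both, at 0.40 ± 0.17 (SE) and 0.34 ± 0.18. With Cl-BBQ it was the 1 marker at an unadjusted p under 0.05, and with TCDD there were 0. The array means of the 7 markers lay between 3.73 and 4.11 with Cl-BBQ, between 3.97 and 4.10 with TCDD and between 3.81 and 4.01 with vehicle. The 2 not tested, Pf4 and Ppbp, the chemokines of platelet granules, stayed below the floor on every array. Gp5, Pf4 and Ppbp were named after their values had been seen.

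Itgb1, the common beta chain of the matrix-binding integrins and of the receptor for VCAM-1, fell the furthest of the 9 genes with both ligands. It read 6.33, 6.49, 6.27, 6.23 and 6.47 with Cl-BBQ, 6.61, 6.71, 6.09 and 6.42 with TCDD and 9.83, 9.60, 9.43 and 9.51 with vehicle. The gap between the lowest vehicle array and the highest ligand array was far wider than the spread within any group. The log2 change was -3.23 ± 0.13 (SE) with Cl-BBQ (limma, adjusted p = 5.6e-10) and -3.14 ± 0.13 with TCDD (adjusted p = 3.6e-09), so vehicle signal was 9.41 times that of Cl-BBQ and 8.79 times that of TCDD. The ligand arrays still lay well above the floor.

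Itga4, the alpha chain shared by the receptors for VCAM-1 and MAdCAM-1, fell too. Its values were 7.55, 7.31, 7.23, 7.30 and 7.50 with Cl-BBQ, 7.21, 7.22, 7.23 and 7.46 with TCDD and 8.36, 8.37, 8.42 and 8.48 with vehicle. No ligand array reached the vehicle range. It fell by 1.03 ± 0.09 (SE) on the log2 scale with Cl-BBQ (limma, adjusted p = 2.5e-06) and by 1.13 ± 0.10 with TCDD (adjusted p = 4.9e-06).

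Itgal and Itgb2 together form LFA-1, the integrin that holds a T cell to its antigen-presenting cell. Itgal read 9.34, 9.23, 9.32, 9.50 and 9.54 with Cl-BBQ, 9.55, 9.47, 9.56 and 9.48 with TCDD and 9.84, 9.93, 9.91 and 10.05 with vehicle, with no overlap between ligand and vehicle arrays. It fell by 0.55 ± 0.09 (SE) with Cl-BBQ (limma, adjusted p = 4.8e-04) and by 0.42 ± 0.09 with TCDD (adjusted p = 0.010). Itgb2 did not pass with either ligand. It read 9.61, 9.60, 9.66, 9.71 and 9.80 with Cl-BBQ, 9.79, 9.53, 9.70 and 9.58 with TCDD and 9.65, 9.60, 9.64 and 9.70 with vehicle. The 95% interval of its log2 change ran from -0.15 to 0.20 with Cl-BBQ and from -0.18 to 0.19 with TCDD, both too narrow to hold the falls of Itgal.

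Itgav, the alpha chain of the vitronectin receptor and of TGF-beta-activating integrins, was not called either. Its values were 7.13, 7.08, 6.89, 6.78 and 6.79 with Cl-BBQ, 6.88, 6.84, 6.75 and 6.95 with TCDD and 6.96, 7.26, 6.83 and 6.90 with vehicle, and the 3 groups overlapped. The 95% interval of the change ran from -0.29 to 0.18 with Cl-BBQ and from -0.38 to 0.11 with TCDD. Its other probe set, with a mean of 4.07, was above the floor on only 2 arrays.

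**Figure D2:**
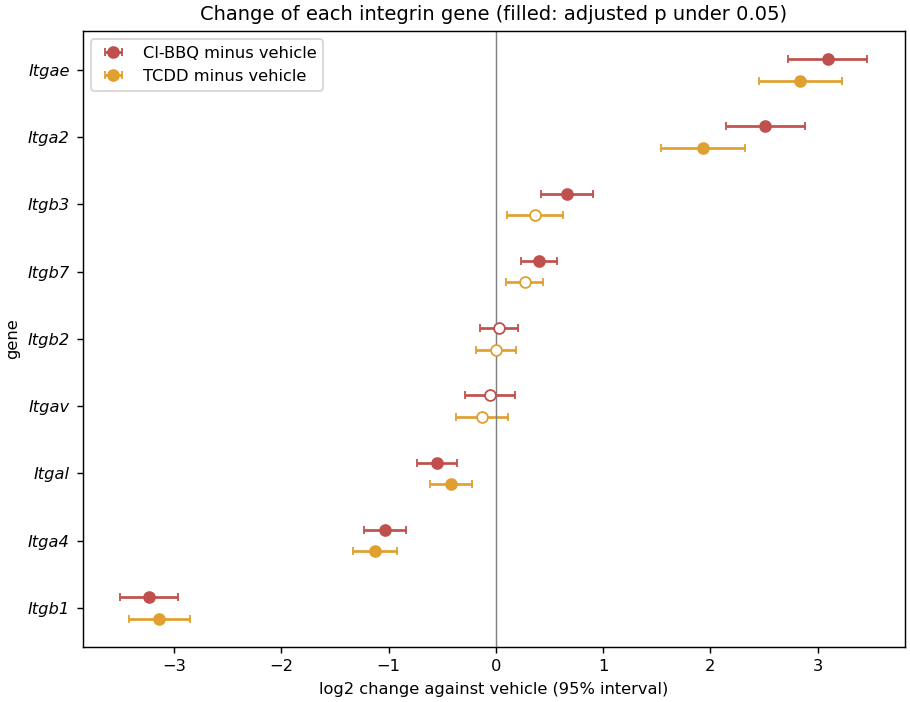
Log2 change against vehicle (horizontal axis) of each integrin gene (vertical axis) with Cl-BBQ (upper point) and TCDD (lower point). Bars are 95% intervals from the limma fit, and filled points passed an adjusted p of 0.05. Itgae and Itga2 stand to the right at 1.93 log2 or more, Itgb1 to the left at -3.14 or less, and the intervals of Itgb2 and Itgav cross 0.

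The collagen receptor chains Itga2 and Itgb1 moved in opposite directions although their products work as 1 receptor, and Itga4 moved with Itgb1. RefSeq start regions of the mouse genome (build GRCm38.p6, strain C57BL/6J) were at hand for 5 of the 9 genes, Itga2, Itga4, Itgav, Itgb1 and Itgb7. Those of these 3 chains are shown, since they share receptors and changed the most among the 5. Each is the 250 bases before the annotated start, on the strand of the gene: chr13:114932101-114932350 (minus strand) for Itga2, chr8:128685404-128685653 (plus strand) for Itgb1 and chr2:79255176-79255425 (plus strand) for Itga4. Capitals mark the core bound by AhR with its partner ARNT (GCGTG) and the core bound by RUNX factors (TGTGGT), each searched on both strands. The motifs do not overlap here.
Itga2: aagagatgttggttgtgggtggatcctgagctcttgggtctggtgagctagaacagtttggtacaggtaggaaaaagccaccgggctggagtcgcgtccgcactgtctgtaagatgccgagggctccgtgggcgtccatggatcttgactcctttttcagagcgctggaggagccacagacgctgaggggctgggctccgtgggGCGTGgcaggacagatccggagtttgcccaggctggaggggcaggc
Itgb1: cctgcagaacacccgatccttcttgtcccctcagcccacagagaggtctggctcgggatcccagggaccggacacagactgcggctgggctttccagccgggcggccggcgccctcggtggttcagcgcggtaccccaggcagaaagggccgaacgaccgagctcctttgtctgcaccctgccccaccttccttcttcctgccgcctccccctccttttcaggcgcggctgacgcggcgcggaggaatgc
Itga4: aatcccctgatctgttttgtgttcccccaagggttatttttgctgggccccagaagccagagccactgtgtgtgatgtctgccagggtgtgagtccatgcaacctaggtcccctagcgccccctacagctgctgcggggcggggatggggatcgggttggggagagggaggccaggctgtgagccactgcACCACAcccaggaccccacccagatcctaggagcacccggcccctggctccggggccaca
The AhR core was present once in the Itga2 window, 46 bases before the start, and in none of the other 4 windows. It is found in 28.2% of all 32851 start windows of this length. The RUNX core was present once in the Itga4 window, as its reverse complement beginning 60 bases before the start, and in 14.05% of all windows. A match to such a short motif describes the letters only, and binding was not measured.

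Whether the 2 chains of a receptor changed unequally was read from the difference of their log2 values within each array. The level of that difference has no meaning of its own, since probe sets differ in brightness. Its change between groups is compressed where a chain lies near the floor, as Itgae and Itga2 did with vehicle. The change was compared over arrays with exact two-sided permutation tests for 7 pairs and 3 comparisons, with Benjamini-Hochberg adjustment over the 21 tests. For all 7 pairs the arrays of each ligand lay apart from the vehicle arrays, which gives the smallest p the designs allow (0.016 for Cl-BBQ and 0.029 for TCDD, both 0.043 after adjustment). Several pairs share a chain, such as Itgb1, so the 7 are not separate findings. The genes were also chosen with earlier results of these data known. With Cl-BBQ every pair held a chain that lay apart from vehicle on its own, and with TCDD every pair but Itgav with Itgb3. These p values against vehicle therefore describe the separation and test nothing further. Of single genes, 12.9% lay apart with Cl-BBQ and 13.6% with TCDD, and the share among gene pairs at large was not computed. Itga2 minus Itgb1 shifted by 5.75 log2 with Cl-BBQ and by 5.07 with TCDD, measured against a vehicle mean of Itga2 below the floor.

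For the E-cadherin receptor, Itgae minus Itgb7 shifted upward by 2.69 log2 with Cl-BBQ and by 2.57 with TCDD, since Itgae rose by far more than Itgb7. For the MAdCAM-1 receptor, Itga4 minus Itgb7 shifted by -1.44 with Cl-BBQ and -1.40 with TCDD, so the partners that share Itgb7 moved in opposite directions around it. For the VCAM-1 receptor both chains fell, but Itgb1 by more, and Itga4 minus Itgb1 shifted by 2.20 and 2.01. Itgav minus Itgb1 shifted by 3.18 with Cl-BBQ and 3.00 with TCDD, almost wholly through Itgb1, since Itgav itself changed by -0.05 and -0.13. Itgav minus Itgb3 shifted by -0.72 with Cl-BBQ and -0.49 with TCDD. With TCDD the larger part came from Itgb3, which rose by 0.36, while Itgav changed by -0.13. Neither of these 2 chains was called with TCDD after adjustment over all genes tested, but Itgb3 had an unadjusted p of 0.0094 (limma). The pairs were adjusted over 21 tests only, so the calls of pair and chains cannot be compared. Itgal minus Itgb2 shifted by -0.58 with Cl-BBQ and -0.42 with TCDD.

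**Figure D3:**
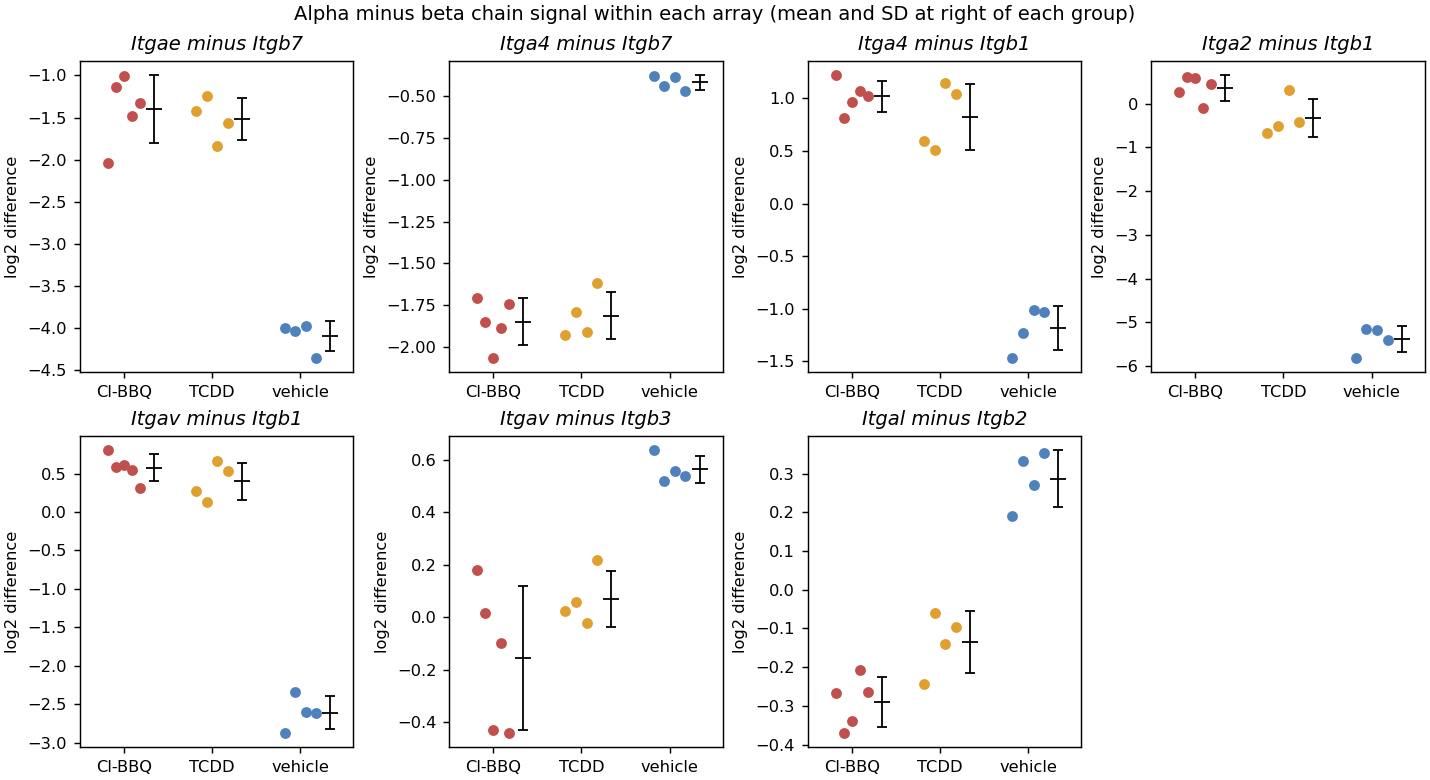
Difference of log2 expression between the alpha and the beta chain of 7 receptors (vertical axis, own scale per panel) on each array of the Cl-BBQ, TCDD and vehicle groups (horizontal axis). Points are single arrays, with the mean and SD at the right of each group, and 0 has no meaning since probe sets differ in brightness. In all 7 panels, several of which share a chain, the ligand arrays lie apart from the vehicle arrays. They lie upward for Itgae with Itgb7 and for the 3 pairs with Itgb1 and downward for the other 3.

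The ligands were also set against each other, with the limit that dose and schedule differed. None of the 9 genes was called for Cl-BBQ against TCDD (limma, 2 at an unadjusted p under 0.05), where the background was 0.0236% of genes, namely Gzma, Il7r and Nqo1. The unadjusted values were those of Itga2, at 6.72 ± 0.38 (SD, n = 5) with Cl-BBQ and 6.14 ± 0.21 (SD, n = 4) with TCDD, a log2 difference of 0.58 with a 95% interval of 0.21 to 0.95 (limma, adjusted p = 0.53), and of Itgb3, at 7.09 ± 0.18 with Cl-BBQ and 6.79 ± 0.05 with TCDD, a difference of 0.30 with an interval of 0.06 to 0.55 (adjusted p = 0.67). For Itgb3 and Itgb7 all Cl-BBQ arrays lay above all TCDD arrays, by a narrow margin, as they did one way or the other for 2.11% of all genes tested. The intervals of the 2 widest movers against vehicle were -0.11 to 0.62 for Itgae and -0.37 to 0.17 for Itgb1, so differences of these sizes between the ligands remain possible. By the order of means, Itgae, Itga2, Itgb3 and Itgb7 ran vehicle, TCDD, Cl-BBQ from low to high, Itgb1 and Itgal ran Cl-BBQ, TCDD, vehicle and Itga4 ran TCDD, Cl-BBQ, vehicle, in each case with Cl-BBQ and TCDD not told apart by the test. Among the pairs, Itgal minus Itgb2 differed between the ligands by -0.15 log2 (exact permutation p = 0.032, adjusted p = 0.044 over all 21 tests), with overlapping arrays, and no other pair passed. Adjusted over the 7 pairs of this comparison alone, it did not pass (adjusted p = 0.17).

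Other integrin chains were examined next to the 9. Of 17 further alpha and beta chain genes, 16 had a probe set with 1 gene, 10 of these did not pass the filter on low values and 6 were tested. Limma called none with either ligand, with 0 at an unadjusted p under 0.05. For only 6 genes this is near the shares of all genes called, 11.3% with Cl-BBQ and 6.71% with TCDD. The changes of the 6 lay between -0.26 and 0.15 with Cl-BBQ and between -0.03 and 0.17 with TCDD. Itga6, a laminin-binding chain named after its values had been seen, was at 7.82 with Cl-BBQ, 7.70 with TCDD and 7.69 with vehicle. The myeloid chains Itgam and Itgax did not pass the filter in this sorted population.

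Of the list of integrin activation and adaptor genes, which holds activators, inhibitors and cytoskeletal linkers, 6 of 32 tested members rose with Cl-BBQ and 3 with TCDD, and none fell. That is 18.8% and 9.38% of the list, beside 11.3% and 6.71% of all genes. The median change was 0.15 with Cl-BBQ and 0.09 with TCDD, against medians of -0.01 and -0.00 over all genes. With Cl-BBQ, Rasgrp2, an exchange factor that loads the small GTPase Rap1, rose by 0.78 ± 0.11 (SE) on the log2 scale, Rap1b by 0.47 ± 0.08 and Apbb1ip, the adaptor RIAM that links Rap1 to talin, by 0.49 ± 0.09. Tln1, the talin gene, was at 0.11 ± 0.08 (limma, adjusted p = 0.47) and Fermt3, the kindlin of blood cells, at 0.27 ± 0.10 (0.089), both named after their values had been seen. Dok1, which competes with talin for beta chain tails, rose by 0.99 ± 0.17, Dock2, a Rac exchange factor of lymphocyte migration, by 0.41 ± 0.09, and Actn1, an actin linker, by 0.44 ± 0.11. The largest adjusted p of these 6 was 0.018, for Actn1 (limma), a call lost without vehicle replicate 1 or 3 (adjusted p up to 0.066).

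With TCDD, Rap1b (0.36 ± 0.08), Dok1 (0.72 ± 0.18) and Rasgrp2 (0.43 ± 0.11) passed (limma, adjusted p of 0.015, 0.023 and 0.032). The call of Rap1b was lost with the mean of its probe sets. The call of Dok1 was lost without TCDD replicates 1 or 4 or vehicle replicates 1 or 3 (adjusted p up to 0.079), and that of Rasgrp2 without any one of 7 arrays (up to 0.095, without TCDD replicate 3), with no floor (0.067), in the fit of the 2 groups alone (0.068) and with arrays shifted to one median (0.053). Apbb1ip was at 0.31 ± 0.09 (adjusted p = 0.060) and passed without vehicle replicate 4 (0.034) and under 4 other settings (adjusted p as low as 0.017). Dock2 was at 0.30 ± 0.09 (adjusted p = 0.065) and passed without vehicle replicate 3 (0.045) and under 3 other settings (as low as 0.018).

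Among 12 tested ligands and counter-receptors of integrins, 2 rose with each ligand and 1 fell with TCDD, which is 16.7% called with Cl-BBQ and 25% with TCDD, beside 11.3% and 6.71% of all genes. Lamc1, a laminin chain, rose by 0.81 ± 0.12 (SE) with Cl-BBQ and by 0.66 ± 0.13 with TCDD (limma, adjusted p of 3.0e-04 and 0.0040), and Thy1, a T cell surface protein that integrins can bind, by 0.36 ± 0.07 and 0.30 ± 0.08 (0.0042 and 0.035). Pecam1, an adhesion molecule of endothelium and leukocytes, fell by 0.44 ± 0.12 with TCDD (0.036) and stood at -0.36 ± 0.11 with Cl-BBQ (0.05002). The TCDD calls of Thy1 and Pecam1 were each lost without some single arrays (any one of 7 and of 8, adjusted p up to 0.10), and both were lost with no floor (0.093 and 0.075). That of Thy1 was also lost in the fit of the 2 groups alone (0.070) and with arrays shifted to one median (0.056). Pecam1 passed with Cl-BBQ without Cl-BBQ replicate 4 (0.021) and under 5 other settings (0.026 to 0.049).

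The other adhesion receptors of T cells held the largest share of calls of these 5 lists, 8 higher and 2 lower of 20 tested with Cl-BBQ (50%) and 6 higher and 2 lower with TCDD (40%), beside 11.3% and 6.71% of all genes. Cd96, a receptor for nectin-like proteins, rose by 1.77 ± 0.13 (SE) with Cl-BBQ and by 1.49 ± 0.13 with TCDD. Selplg, which encodes the selectin ligand PSGL-1, rose by 1.03 ± 0.10 and 0.81 ± 0.11, Cd48, a ligand of CD2, by 0.67 ± 0.08 and 0.51 ± 0.09, and L1cam, a neural-type adhesion molecule, by 1.36 ± 0.17 and 0.84 ± 0.18. Slc3a2, the CD98 heavy chain that binds beta chain tails, rose by 0.51 ± 0.09 with Cl-BBQ and by 0.55 ± 0.10 with TCDD. Cd81, a tetraspanin known to associate with integrins, fell by 0.98 ± 0.15 with Cl-BBQ and by 0.76 ± 0.15 with TCDD. The largest adjusted p among these 6 genes was 0.0020 with Cl-BBQ, for Slc3a2, and 0.010 with TCDD, for L1cam (limma).

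Of the factors and signals known to bear on Itgae or Itgb1, 5 of 19 tested members rose with Cl-BBQ (26.3%) and 4 with TCDD (21.1%), beside 11.3% and 6.71% of all genes called, and none fell. Runx3, a transcription factor needed for Itgae expression in CD8+ T cells, was higher by 0.86 ± 0.08 (SE) with Cl-BBQ and by 0.62 ± 0.08 with TCDD (limma, adjusted p of 3.5e-06 and 2.7e-04). Bhlhe40, a regulator of resident T cells, rose by 1.35 ± 0.16 and 1.22 ± 0.17, Tgfb3, a ligand of the TGF-beta receptor, by 1.28 ± 0.17 and 1.15 ± 0.18, and Prdm1, which encodes Blimp-1, by 1.13 ± 0.21 and 1.02 ± 0.22. The list's other TGF-beta genes were Tgfb1, Tgfbr1, Tgfbr2, Tgfbr3, Smad2, Smad3, Smad4 and Smad7. None of them was called with either ligand, and they were named after their values had been seen. Tbx21, the T-bet gene, passed with Cl-BBQ (0.64 ± 0.15, adjusted p = 0.0088) and not with TCDD (0.34 ± 0.15, adjusted p = 0.26). The difference between the ligands did not pass for any member of these 5 lists (limma, Cl-BBQ against TCDD, with 0 to 3 members of a list at an unadjusted p under 0.05).

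**Figure D4:**
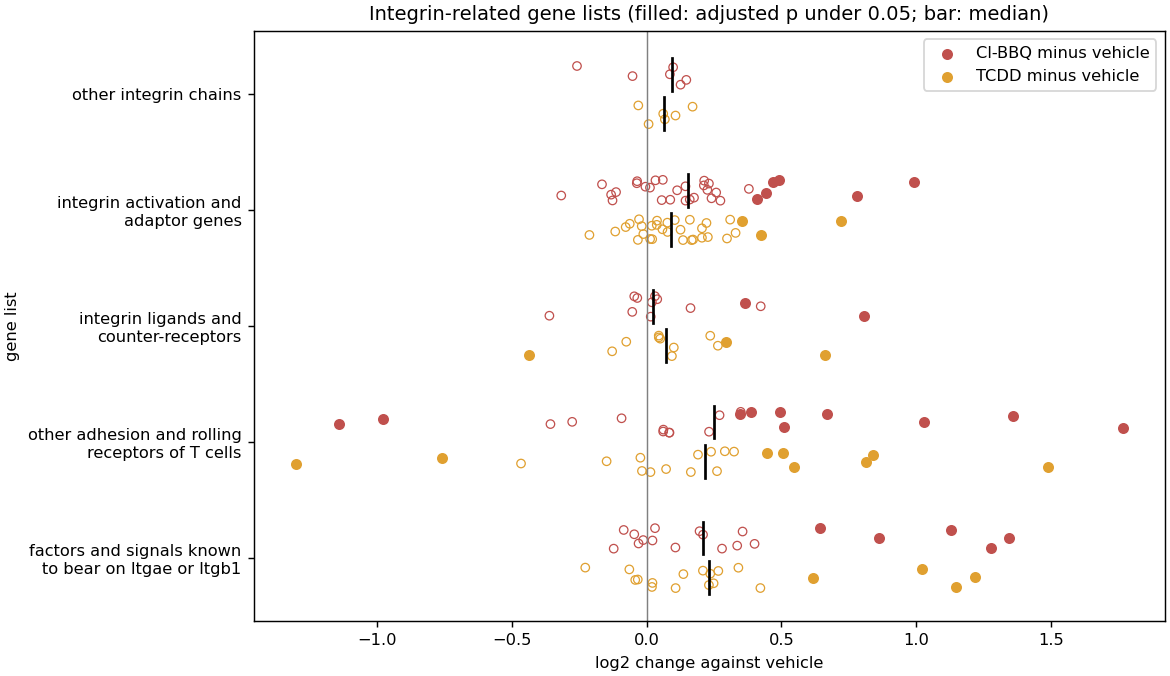
Log2 change against vehicle (horizontal axis) of the tested members of 5 gene lists around the integrins (vertical axis), with Cl-BBQ in the upper and TCDD in the lower row of each list. Filled points passed an adjusted p of 0.05 and the black bars are medians. None of the 6 further integrin chains passed, which for so few genes is near the share of all genes called. The activation and adaptor genes and the factors hold filled points only to the right, and the other adhesion receptors hold the most filled points, on both sides.

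Genes whose pattern over the 13 arrays was most like that of a called member were listed by Pearson's r, a description that the difference between ligand and vehicle arrays largely sets. Itgae was closest to Nkg7 and Gzmb, both of cytotoxic granules (r of 0.99 each), and Exoc3, an exocyst subunit (0.99). With the group means removed these r were 0.74, 0.70 and 0.62. Itga2 was closest to Sytl2, a granule docking protein gene (0.98, and 0.84 with group means removed), Cd7 and Ifitm3. Itgb1 was closest to Shcbp1 (0.99), Nrp1, a semaphorin co-receptor, and Kif11, a mitotic kinesin (0.98 each), and with group means removed these fell to 0.42, 0.31 and 0.24. Itga4 was closest to Cd22 (0.97), with Itgb1 (0.97) and Dapl1 (0.96) next, and for Itga4 with Itgb1 the r with group means removed was -0.06. The others were Itgal with AB124611, Ttk and Usp6nl, Itgb3 with Il7r, Pdlim4 and Lgals3, and Itgb7 with Tesc, Tpst2 and Apbb1ip, all with r between 0.93 and 0.97.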

How the data were processed

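The deposited table holds log2 expression for 41345 probe sets on 13 single-colour arrays with biotin-labelled targets. Per the submitters' processing notes the authors made these log2 values with RMA (background correction, quantile normalization between arrays, summary per probe set) of a release not given in the sources used here. Quantile normalization hides any shift that all genes share.

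Probe sets were named from the platform's gene table, and gene identifiers gave current symbols from a RefSeq table of GRCm38.p6. Of these, 23521 named 1 gene, 1814 several and 16010 were unnamed here. One model with 3 group means was fitted to 12710 genes with limma 3.58.1 in R 4.3.3 (lmFit and eBayes, 10 residual and 4.22 prior degrees of freedom), with two-sided tests and Benjamini-Hochberg adjustment over all genes tested within each comparison. SE is the moderated standard error. The number of arrays limits the precision. Pairs of chains were compared with exact permutation tests in scipy 1.17.1. The pipeline was tested on simulated data.

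The 9 genes and the lists around them were chosen with earlier results of these data known. All 9 genes are described. From each list, genes called against vehicle are named, at most 6 by adjusted p, and for likeness the 3 genes with the highest r. Alternatives covered the floor, the probe set, the variance model, the arrays in the fit, scaling, array weights, the replicate number as a block and leaving out each array. Adjusting the tests of pairs within each comparison was added after seeing the data. Scan dates were not used here.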

Additional observations from a re-analysis of the deposited data

Results flagged for a closer look

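Itga4 on TCDD replicate 4 read 7.46, apart from the other 3 TCDD arrays, of which the nearest read 7.23. Across 27 groups of arrays examined this was the 1 value past the cutoff used, and chance gives such a value in about 5% of groups. Itgb3 on vehicle replicate 2 (6.74, nearest 6.36) fell only just short of that cutoff. Without TCDD replicate 4 the log2 change of Itga4 with TCDD was -1.19, and it passed.

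The within-array difference Itgal minus Itgb2 changed by -0.15 log2 between Cl-BBQ and TCDD (exact permutation p = 0.032, adjusted p = 0.044 over 21 tests), with shifts against vehicle of -0.58 for Cl-BBQ and -0.42 for TCDD. Of the 21 tests 14 compare a ligand with vehicle, and over the 7 between the ligands alone the adjusted p was 0.17. Leaving out single arrays gave values from -0.19 to -0.13. Doses and schedules of the ligands differed.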

How the results depend on the processing

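All 7 calls with Cl-BBQ and all 5 with TCDD held under each alternative run and without each single array, and none of the 9 genes was called between the ligands under any of them. Itgb7 with TCDD passed in addition, at 0.27 with a stricter floor, 0.27 with an intensity trend, 0.28 after a further quantile normalization and 0.27 with array weights. Without single arrays Itgb7 ranged from 0.24 to 0.31 and Itgb3 with TCDD from 0.31 to 0.47. Signs turned only for changes near 0. Itgb2 with TCDD was at -0.012 after shifting arrays to one median and at -0.00735 after a further quantile normalization, and ranged from -0.045 to 0.041 without single arrays. Itgb2 with Cl-BBQ ranged from -0.0033 to 0.048 and Itgav with Cl-BBQ from -0.10 to 0.036 without single arrays. Between the ligands Itgav was at -0.033 with the mean of its probe sets, and Itgb2 ranged from -0.012 to 0.073 without single arrays. The 3 genes called between the ligands became 0 with no floor, 6 with a stricter floor, 5 with means of probe sets, 6 with an intensity trend, 0 in the fit of the 2 groups alone, 6 after a further quantile normalization, 7 with array weights and 0 to 5 without single arrays (limma, with 597 to 1266 genes at an unadjusted p under 0.05 over these settings), and the cause was not tested. Itgal minus Itgb2 between the ligands (-0.15) no longer passed when adjusted over the 7 pairs of that comparison, a setting chosen after seeing the data, since fewer tests at the smallest p then enter the adjustment. Without single arrays the differences of pairs were only recomputed, and no permutation test was run. With 3 arrays of TCDD or of vehicle left, the test between those groups could not have passed.

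Same-numbered arrays of different groups did not deviate together: their deviations were correlated between -0.06 and 0.08, and 2 of 13 arrays correlated best with their own number. Such correlations cannot show whether same-numbered samples were handled together. With the number as a replicate block, genes called were 1114 for Cl-BBQ against vehicle, 714 for TCDD against vehicle and 0 between the ligands, and Itgb2 was at -0.0033 with Cl-BBQ and -0.0055 between the ligands. Number 5 occurred only with Cl-BBQ, so the block took up that whole array. Without Cl-BBQ replicate 5 and with no block, Itgb2 was likewise at -0.0033 and -0.0055. The block also left fewer than the 10 residual degrees of freedom of the main fit. The TCDD calls of Rap1b, Dok1, Rasgrp2, Thy1 and Pecam1 and the Cl-BBQ call of Actn1 were lost under this block.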

Other observations

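Single members of further marker lists passed the test. Kit, the stem cell factor receptor, was higher by 0.81 ± 0.14 (SE) with Cl-BBQ and by 1.19 ± 0.15 with TCDD (limma, adjusted p of 0.0014 and 1.7e-04), and was the only tested one of 5 mast cell and basophil markers. Epcam, an epithelial adhesion molecule that some T cells carry, rose by 0.85 ± 0.14 with Cl-BBQ and by 0.67 ± 0.15 with TCDD. The other tested epithelial marker, Krt8, was not called (0.09 and 0.07). Cd68, a lysosomal protein, rose by 0.64 ± 0.19 with Cl-BBQ and by 0.79 ± 0.20 with TCDD. The other tested macrophage markers, Csf1r (-0.18 and -0.17) and Fcgr1 (-0.05 and -0.14), were not called. Cd22, an inhibitory lectin best known from B cells, fell by 2.07 ± 0.15 with Cl-BBQ and by 2.14 ± 0.16 with TCDD. Of 5 tested B cell markers it was the only one called, beside 11.3% of all genes with Cl-BBQ and 6.71% with TCDD. These genes were named after their values had been seen.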
